A study of Mus musculus with 9 samples.

Results

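Chemokine receptors steer T cells into and out of tissues, and the 8 genes described here are Ccr2, Ccr4, Ccr6, Ccr8, Ccr9, Cxcr4, Cxcr6 and Cx3cr1, taken by symbol from a deposited table of 39253 mouse genes. All 8 were present and had counts in every library. The RNA came from CD4+ T cells of mice with experimental autoimmune encephalomyelitis (EAE), a model of multiple sclerosis in which T cells primed against myelin enter the central nervous system, sampled on day 9. The libraries were 5 labelled ERα KO (3 in batch 1, replicates 1 to 3, and 2 in batch 2, replicates 4 and 5) and 4 labelled wildtype (WT; 2 in batch 1, replicates 1 and 2, and 2 in batch 2, replicates 3 and 4). ERα is the estrogen receptor encoded by Esr1. The series title places the receptor's action in dendritic cells, but the cells that lost the gene, the deleted exons, the animals' sex and age, the tissue of origin of the T cells and whether each library is a separate animal are not stated in the labels. The p-values below therefore measure the spread between these libraries, which may be technical.

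Chemokine receptors are membrane proteins that couple to inhibitory G proteins. When a chemokine binds, the released G protein subunits activate phosphoinositide 3-kinase and the Rac activator Dock2, the cell polarises and its integrins engage, until arrestins and RGS proteins end the signal. Naive T cells carry Ccr7, which holds them in the circuit through lymph nodes, and effector T cells gain receptors such as Ccr2, Ccr6 and Cxcr6 that lead to inflamed tissue. In mice, Ccr2 and Ccr6 are known for their part in EAE. The group is not uniformly inflammatory: Cxcr4 is mostly regarded as a homeostatic receptor and Ccr9 as a gut-homing one.

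According to RefSeq (GRCm38.p6), Ccr2, Ccr4, Ccr8, Ccr9, Cxcr6 and Cx3cr1 lie on chromosome 9, Ccr6 on chromosome 17 and Cxcr4 on chromosome 1. The 250 bases before the annotated start are shown for Ccr2 and Cxcr6, whose levels varied together across libraries, and for the first of the 2 annotated starts of Ccr6, the only member whose batch 1 groups did not overlap. Capitals mark a match to AGGTCA, a string bound by several nuclear receptors, read here on the opposite strand.
Ccr2, chr9:124101933-124102182, plus strand: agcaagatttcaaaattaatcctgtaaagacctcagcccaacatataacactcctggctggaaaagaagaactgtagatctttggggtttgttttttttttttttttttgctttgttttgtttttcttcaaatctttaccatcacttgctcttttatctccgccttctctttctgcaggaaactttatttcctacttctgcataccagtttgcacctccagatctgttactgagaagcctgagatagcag
Cxcr6, chr9:123806227-123806476, plus strand: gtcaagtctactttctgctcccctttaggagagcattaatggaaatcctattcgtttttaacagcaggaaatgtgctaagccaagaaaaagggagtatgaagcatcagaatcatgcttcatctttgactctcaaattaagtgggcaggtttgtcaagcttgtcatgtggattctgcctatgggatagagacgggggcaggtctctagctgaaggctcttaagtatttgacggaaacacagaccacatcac
Ccr6, chr17:8235793-8236042, plus strand: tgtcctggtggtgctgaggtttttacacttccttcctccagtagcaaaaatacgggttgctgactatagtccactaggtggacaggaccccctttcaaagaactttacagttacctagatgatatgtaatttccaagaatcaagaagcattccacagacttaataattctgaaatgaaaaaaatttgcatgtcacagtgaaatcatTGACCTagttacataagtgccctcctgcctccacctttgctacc
Matches on both strands are given for AGGTCA and for ACGTG, the core of the hypoxia response element. All 8 members had a promoter entry, 9 starts in all. AGGTCA occurred once in these 9 windows, 44 bases before the first Ccr6 start, and is found in 14% of 32851 mouse promoter windows of the same length. ACGTG, found in 16.6% of windows, occurred once, 212 bases before the second Ccr6 start. A match describes the letters of the window and is not a binding site.

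Values are CPM, the estimated count of a gene per 1000000 counts of its library. Batch 1 libraries were shallow, at 4926347 to 11296593 estimated counts, and batch 2 libraries deeper, at 45013017 to 69844721. A count of 0 allowed up to 0.266 to 0.609 CPM in batch 1 and 0.0430 to 0.0666 CPM in batch 2, for counting error only. Genes of olfactory, vomeronasal and taste receptors, which T cells are not known to use, averaged 0.376 to 1.68 CPM per gene in batch 1, with a 95th percentile of 0.974 to 4.14 CPM, and 0.0171 to 0.0246 CPM in batch 2. Ccr8, Ccr9 and Cx3cr1, the lowest receptors in batch 1, were above the 95th percentile of their own library in 14 of 15 values, at 0.692 to 7.71 times that level, the exception being Cx3cr1 in WT 2. Esr1 had 9.58, 6.31 and 13.02 CPM in the batch 1 libraries labelled ERα KO, against 4.87 and 16.2 CPM in WT, so the targeted gene did not separate the labels in batch 1. In batch 2 it had 0.143 and 0.256 CPM in ERα KO, against 1.45 and 1.69 CPM in WT (log2 fold change -2.96 ± 0.70 SE, adjusted p = 0.618 with edgeR's quasi-likelihood test). Within batch 1, Esr1 was highest in WT 2 and ERα KO 3. These libraries also had the highest 95th percentiles of the sensory receptor genes, 2.64 and 4.14 CPM. The part of background in the batch 1 Esr1 values was not tested. The 8 CD4 T cell markers found in the table, of 9 listed, were detected in every library and summed to 3262 to 4828 CPM. ERα KO 3 stood apart from its batch in carrying the Y-linked Ddx3y at 55.4 CPM and Xist at 30.4 CPM, while the other batch 1 libraries had no Ddx3y counts and 1745 to 2680.3 CPM of Xist, and batch 2 had 93.6 to 107 CPM of Ddx3y. Apart from ERα KO 3, the batches thus differed in Y-linked RNA, so batch cannot be told apart from the sex of the animals. The batch 1 ERα KO group held libraries with and without Ddx3y. WT 3 carried 1820.4 CPM of erythroid markers, against 4.14 to 141 CPM elsewhere. For the receptors, values without ERα KO 3 and without WT 3 stand beside the main ones.

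Cxcr4 was the most abundant member per kilobase of exon, joined over the annotated transcripts of a gene, and Ccr9 and Cx3cr1 the least. In plain CPM, Ccr2 exceeded Cxcr4 in ERα KO 2 (85.4 against 68.2 CPM) and in WT 4 (219 against 142 CPM). Dividing CPM by the exon length in kilobases gave medians over the 9 libraries of 97.2 for Cxcr4, 15.2 for Cxcr6, 14.02 for Ccr4, 13.2 for Ccr2, 10.7 for Ccr6, 5.23 for Ccr8, 1.38 for Ccr9 and 0.888 CPM per kilobase for Cx3cr1. The ranges of Cxcr6, Ccr4, Ccr2 and Ccr6 overlapped, so their order is not beyond the spread, whereas the lowest Cxcr4 value, 37.8, was exceeded by only 1 value of another member, the 47.7 of Cxcr6 in WT 4. Cxcr4 took 24.5% to 59.4% of the members' summed CPM in a library. That sum was 321, 251 and 335 CPM in batch 1 ERα KO, against 364 and 306 CPM in WT, and 440.3 and 461 CPM in batch 2 ERα KO, against 483 and 579 CPM in WT. The groups' sums overlapped in batch 1 and did not in batch 2. Among single genes tested in batch 2, 20.5% had both ERα KO libraries below both WT libraries. The sums of the 16 other chemokine receptors lay the other way in batch 2. They were 439 and 417 CPM in ERα KO, against 336 and 306 CPM in WT. Of the members, only Ccr4 had all batch 1 libraries below all batch 2 libraries. It had 17.0 to 40.8 CPM in batch 1 and 43.8 to 67.4 CPM in batch 2. The CD4 T cell markers Cd2, Cd3d, Cd3e, Cd3g, Cd4 and Lck had the same order of batches, unlike Cd5 and Cd28. The share of all genes with that order was not counted.

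**Figure D1:**
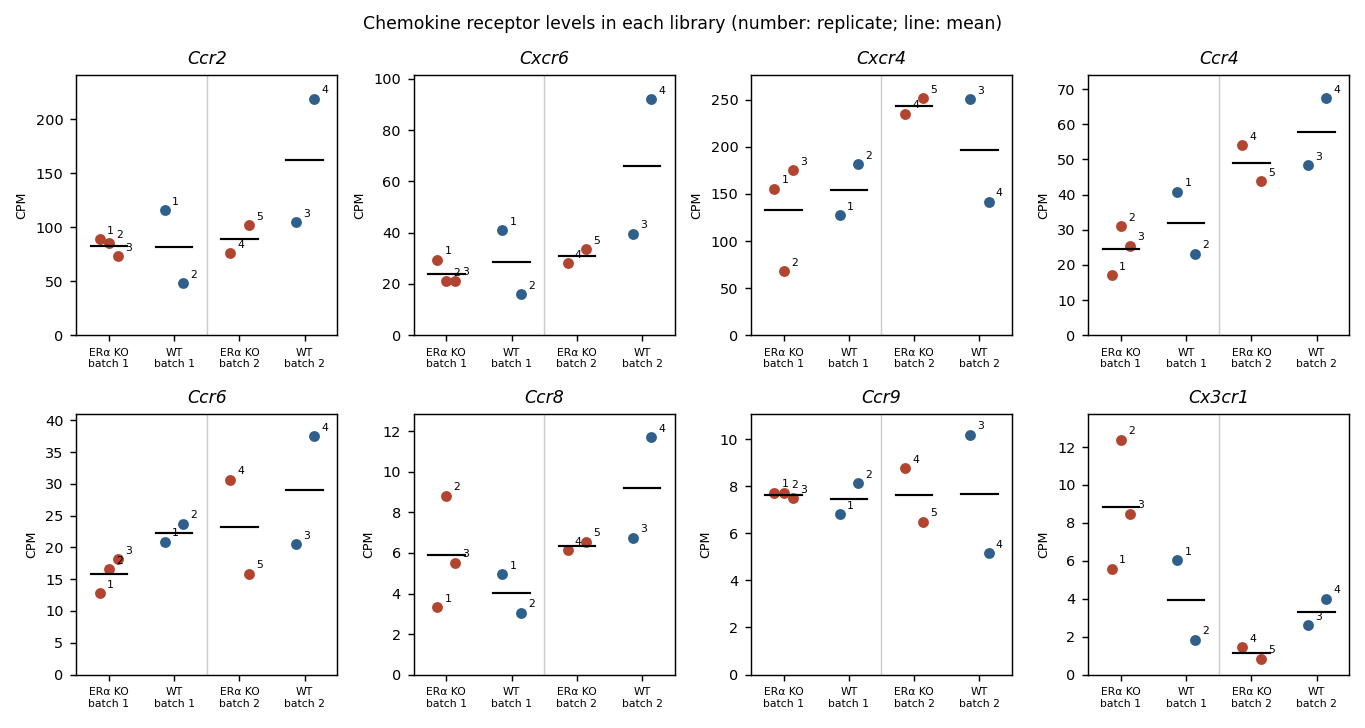
CPM of the 8 chemokine receptors in each of the 9 libraries, by batch, with ERα KO left of WT; points are libraries, marked by replicate number, and lines are group means. WT 4 is the highest batch 2 library for 6 receptors and the lowest for Cxcr4 and Ccr9.

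None of the 8 receptors passed an adjusted p of 0.05 in any of the 4 comparisons run over the whole table: ERα KO against WT with batch as a term, within batch 1, within batch 2, and the difference between the batches. Over both batches, 1 of 22197 genes passed (0.00451%) and all 8 receptors had log2 fold changes below 0, as had 48.6% of all genes. Their median was -0.25, against 0.01 for all genes. For Ccr8, Ccr9 and Cxcr4 the sign turned with upper-quartile scaling, to 0.015, 0.0096 and 0.013. Within batch 1, 31 of 24600 genes passed (0.126%), 6 receptors lay below 0, as did 46.2% of all genes, and 2 above. Their median was -0.28, against 0.04 for all genes. The fits scaled libraries by TMM, which the printed CPM did not, so small differences can differ in sign. In batch 1, mean CPM was 82.5 in ERα KO and 82.0 in WT for Ccr2. For Ccr9 it was 7.63 and 7.47, although both fold changes were below 0. Within batch 2, 0 of 15910 genes passed with edgeR (0%), although 1237 had an unadjusted p under 0.05 (7.77%) and DESeq2's Wald test called 329 (2.07%), none of them a receptor of the group. There 7 receptors lay below 0, as did 52.2% of all genes, and 1 above, with a median of -0.41, against -0.02 for all genes.

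**Figure D2:**
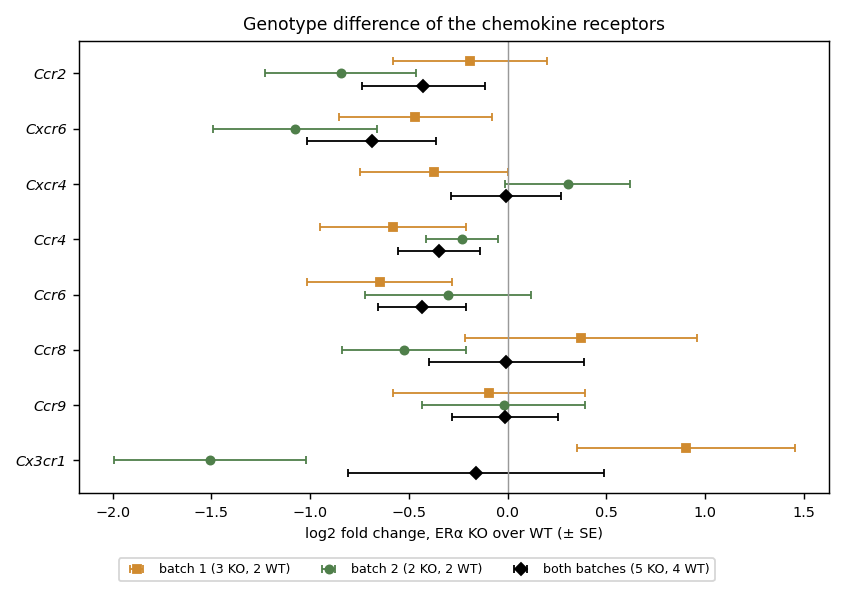
Log2 fold change of ERα KO over WT for each receptor, from edgeR's fits of batch 1, batch 2 and both batches; bars are ± 1 SE. Cxcr6, Ccr4, Ccr6, Ccr2 and Ccr9 lie below 0 in both batches, Ccr9 close to it, while Cx3cr1 lies at 0.90 in batch 1 and at -1.51 in batch 2.

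Ccr2 and Cxcr6 are receptors of effector T cells: Ccr2 binds Ccl2 and related monocyte chemoattractants and also marks inflammatory monocytes, and Cxcr6 binds Cxcl16 and marks effector and tissue-resident T cells. Ccr2 (Entrez 12772) had 89.0, 85.4 and 73.0 CPM in batch 1 ERα KO, against 116 and 48.1 CPM in WT. The 3 ERα KO libraries lay between the WT pair, and the log2 fold change was -0.19 ± 0.39 (SE; adjusted p = 1.00). Batch 2 gave 75.9 and 102 CPM in ERα KO, against 105 and 219 CPM in WT. The groups did not overlap, but ERα KO 5 and WT 3 were nearly level and WT 4 stood far above, giving -0.85 ± 0.38 (adjusted p = 0.691). Cxcr6 (Entrez 80901) had 29.4, 21.003 and 21.3 CPM in batch 1 ERα KO, against 41.1 and 16.0 CPM in WT. Again the ERα KO libraries lay between the WT pair (-0.47 ± 0.39, adjusted p = 1.00). In batch 2 Cxcr6 had 28.01 and 33.6 CPM in ERα KO, against 39.6 and 92.2 CPM in WT. Both ERα KO libraries were below both WT libraries, with WT 4 again the highest (-1.08 ± 0.41, adjusted p = 0.645). Over both batches Ccr2 had -0.43 ± 0.31 and Cxcr6 -0.69 ± 0.33, with unadjusted p of 0.200 and 0.0631 and adjusted p of 1.00 for each. Leaving out WT 2 gave -0.86 and -1.11, and leaving out WT 4 gave -0.14 and -0.36.

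For both genes the value depended on which WT library was kept. Without WT 3 the batch 2 values were -1.26 for Ccr2 (adjusted p = 0.0453) and -1.54 for Cxcr6 (adjusted p = 0.00446), and Cxcr4 passed in the other direction at 0.82 (adjusted p = 0.00995). In that fit 268 of 16575 genes passed (1.62%), and WT 4 was the lone WT library, assumed to vary like the ERα KO pair. Without WT 4 the values were -0.28 for Ccr2 and -0.40 for Cxcr6, and no receptor of the group passed although 879 of 16858 genes did (5.21%). In batch 1, leaving out WT 1 put Ccr2 at 0.82 and Cxcr6 at 0.62, while leaving out WT 2 put them at -0.81 and -1.10. Without ERα KO 3 they were -0.01 and -0.29.

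**Figure D3:**
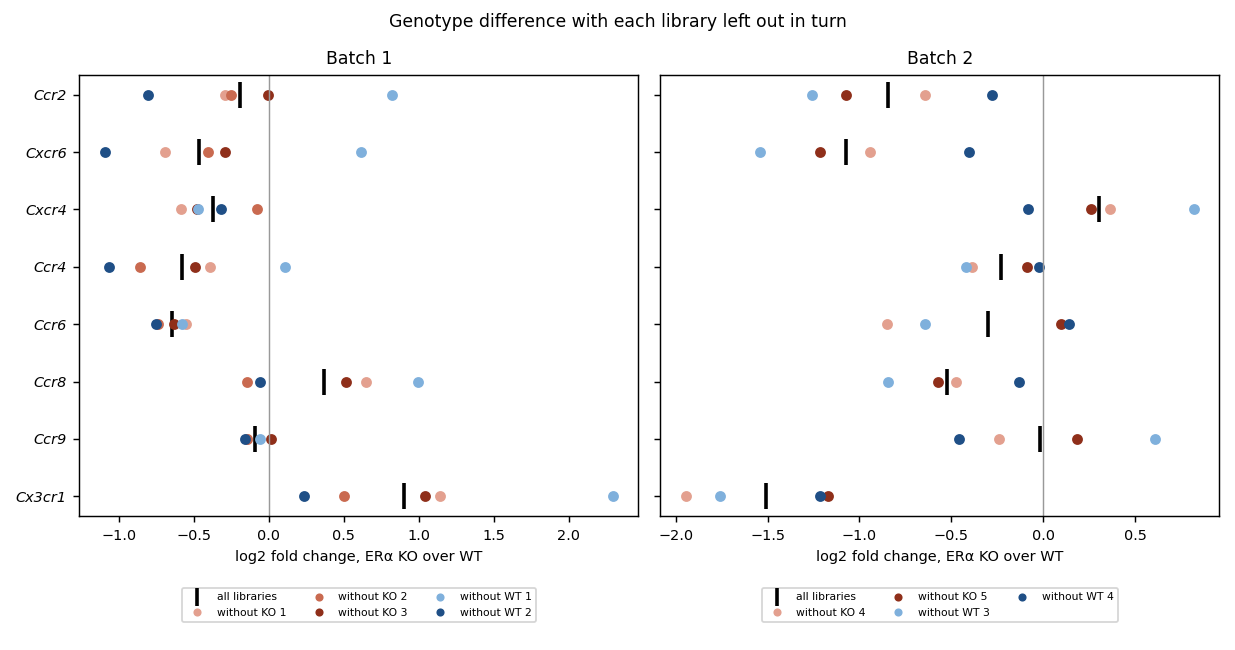
Log2 fold change of ERα KO over WT within each batch when each library is left out in turn (coloured points; the black bar is the value with all libraries). Ccr6 in batch 1 moves least among the members with more than 10 CPM, from -0.75 to -0.55, while Ccr2 in batch 1 spans -0.81 to 0.82.

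Cxcr4, the receptor for Cxcl12 that retains cells in bone marrow and lymphoid tissue, ran opposite to Ccr2 and Cxcr6 across several libraries. Cxcr4 (Entrez 12767) had 156, 68.2 and 175 CPM in batch 1 ERα KO, against 127 and 182 CPM in WT. The groups overlapped, with ERα KO 2 the lowest library (-0.37 ± 0.37, adjusted p = 1.00; -0.48 without ERα KO 3 and -0.077 without ERα KO 2). Batch 2 Cxcr4 levels were 235 and 252 CPM in ERα KO, against 251 and 142 CPM in WT. WT 3 lay level with the ERα KO pair and WT 4 alone was low (0.30 ± 0.32, adjusted p = 0.850). Without WT 4 the batch 2 value turned to -0.082, and over both batches it was -0.01 ± 0.28.

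Ccr4 and Ccr6 are receptors tied to helper T cell subsets: Ccr4 binds Ccl17 and Ccl22 and is carried by Th2, regulatory and skin-homing T cells, and Ccr6 binds Ccl20 and is carried by Th17 cells. Ccr4 (Entrez 12773) had 17.0, 30.99 and 25.4 CPM in batch 1 ERα KO, against 40.8 and 23.1 CPM in WT. WT 1 was the highest, the groups overlapped, and the log2 fold change was -0.58 ± 0.37 (adjusted p = 1.00), 0.10 without WT 1, -1.07 without WT 2 and -0.49 without ERα KO 3. In batch 2 Ccr4 had 54.0 and 43.8 CPM in ERα KO, against 48.3 and 67.4 CPM in WT, overlapping once more (-0.23 ± 0.18, adjusted p = 0.786). That value was -0.42 without WT 3 and -0.023 without WT 4. Ccr6 (Entrez 12458) had 12.8, 16.5 and 18.1 CPM in batch 1 ERα KO, against 20.9 and 23.7 CPM in WT. All 3 ERα KO libraries were below both WT libraries, a pattern held by 5.19% of all genes tested in batch 1 and by no other receptor of the group. Its batch 1 value was -0.65 ± 0.37 (unadjusted p = 0.0815, adjusted p = 1.00) and -0.64 without ERα KO 3. In batch 2 Ccr6 had 30.6 and 15.9 CPM in ERα KO, against 20.5 and 37.5 CPM in WT. The groups interleaved there, and the value of -0.30 ± 0.42 (adjusted p = 0.900) turned to 0.14 without WT 4 and 0.097 without ERα KO 5, and was -0.65 without WT 3. Over both batches Ccr4 had -0.35 ± 0.21 and Ccr6 -0.43 ± 0.22, each with an adjusted p of 1.00, and leaving out 1 library gave -0.62 to -0.14 for Ccr4 and -0.68 to -0.30 for Ccr6.

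Ccr8, Ccr9 and Cx3cr1 were the low members. Ccr8 (Entrez 12776), which binds Ccl1 and is carried by Th2 and regulatory T cells, had 3.33, 8.84 and 5.52 CPM in batch 1 ERα KO, against 4.96 and 3.04 CPM in WT, resting on 15 to 77 counts. The groups overlapped and the value was 0.37 ± 0.59 (adjusted p = 1.00), or 0.52 without ERα KO 3 and -0.061 without WT 2. In batch 2 Ccr8 had 6.14 and 6.55 CPM in ERα KO, against 6.76 and 11.7 CPM in WT. The groups were separate by a small gap, with WT 4 apart (-0.52 ± 0.31, adjusted p = 0.731; -0.84 without WT 3 and -0.13 without WT 4). Ccr9 (Entrez 12769), the receptor for Ccl25 that directs T cells to the small intestine, had 7.72, 7.69 and 7.496 CPM in batch 1 ERα KO, against 6.82 and 8.12 CPM in WT. Ccr9 in batch 2 had 8.77 and 6.499 CPM in ERα KO, against 10.2 and 5.15 CPM in WT. In both batches the ERα KO libraries lay between the WT pair, and the values were -0.09 ± 0.49 in batch 1 (0.017 without ERα KO 3) and -0.02 ± 0.41 in batch 2 (0.61 without WT 3). Of the 31-base stretches in Ccr9 transcripts, 21.7% also occur in other genes, mostly in AC165425.1, so its counts could be split differently; for the other members the share was at most 3.48%, reached by Ccr2.

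Cx3cr1 (Entrez 13051) is the fractalkine receptor, carried by monocytes, microglia, NK cells and some effector T cells. It had 5.59, 12.4 and 8.48 CPM in batch 1 ERα KO, against 6.02 and 1.83 CPM in WT. These rest on 42, 108 and 43 counts in ERα KO, against 68 and 9 counts in WT, and the groups overlapped (0.90 ± 0.55, adjusted p = 1.00). The value was 1.04 without ERα KO 3, 2.30 without WT 1 and 0.23 without WT 2. Levels in batch 2 were 1.45 and 0.842 CPM in ERα KO, against 2.59 and 4.00 CPM in WT. Both ERα KO libraries were below both WT libraries, and the value of -1.51 ± 0.49 had an unadjusted p of 0.0245 and an adjusted p of 0.625. It ranged from -1.95 to -1.17 when each batch 2 library was left out, with -1.76 without WT 3. In all, 4 of the 8 receptors (Ccr2, Cxcr6, Ccr8 and Cx3cr1) had both batch 2 ERα KO libraries below both WT libraries, a pattern held by 20.5% of all genes tested in that batch.

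The test of the difference between batches, the batch 2 log2 fold change minus that of batch 1, passed for 1 of 22197 genes (0.00451%) and for 0 of the 8 receptors with edgeR or DESeq2. Cx3cr1 was the furthest from 0, at -2.60 ± 0.93 (unadjusted p = 0.0171, adjusted p = 0.563). It had an unadjusted p under 0.05, as had 8.36% of all genes, and was the only receptor of the group to have one. Ccr8 had -1.04 ± 0.71, Ccr2 -0.81 ± 0.58, Cxcr6 -0.76 ± 0.63 and Cxcr4 0.56 ± 0.56, with adjusted p of 0.746, 0.770, 0.846 and 0.921. Leaving out WT 1 put Ccr2 at -1.75, Cxcr6 at -1.77 and Cx3cr1 at -3.89, and leaving out WT 2 put them at -0.074, -0.014 and -1.77. Ccr8 ranged from -1.601 (without WT 1) to -0.49 (without WT 2) and Cxcr4 from 0.196 (without WT 4) to 1.15 (without WT 3). Ccr4 had 0.20 ± 0.43, Ccr6 0.23 ± 0.46 and Ccr9 -0.02 ± 0.56, each with an adjusted p of 1.00. The median over all genes was -0.19, against -0.39 for the group. Apart from ERα KO 3, the batches also differed in Ddx3y, so batch and sex cannot be told apart here.

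Markers of monocytes and macrophages mostly had the signs of Cx3cr1 and Ccr8, above 0 in batch 1 and below 0 in batch 2, as had those of neutrophils. All 12 listed markers of monocytes and macrophages had counts in every library. They summed to 401, 458 and 381 CPM in batch 1 ERα KO, against 351 and 171 CPM in WT, and to 146 and 180 CPM in batch 2 ERα KO, against 212 and 240 CPM in WT. Of the 12, 8 had a log2 fold change above 0 in batch 1 and 11 had one below 0 in batch 2, with medians of 0.44 and -0.58. Of all genes tested, 46.2% were below 0 in batch 1 and 52.2% in batch 2. The macrophage receptor Csf1r had 27.8 and 27.9 CPM in batch 2 ERα KO, against 25.1 and 59.0 CPM in WT. Neutrophil markers summed to 1242, 759.9 and 1118 CPM in batch 1 ERα KO, against 991 and 332 CPM in WT, and to 5.79 and 9.61 CPM in batch 2 ERα KO, against 233 and 25.3 CPM in WT. Up to 2 of those 9 markers were at 0 in a batch 2 library. All 9 had a log2 fold change above 0 in batch 1, and all 8 tested in batch 2 had one below 0. Dendritic cell markers were above 0 in batch 1 for 7 of 7 tested (median 0.48) and below 0 in batch 2 for 3 of 5 (median -0.08). NK cell markers summed to 53.8 to 67.6 CPM in the 9 libraries, with up to 2 of 7 at 0 in a batch 2 library. Of the 7, 4 had a log2 fold change below 0 in batch 1 and 5 in batch 2, with medians of -0.099 and -0.34. Gzma, the cytotoxic granule protease, had 1.37 and 1.23 CPM in batch 2 ERα KO, against 6.53 and 6.93 CPM in WT (-2.37 ± 0.32, unadjusted p = 0.000496, adjusted p = 0.618). It was picked with its values in view, and Prf1 and Eomes, the 2 NK cell markers above 0 in batch 2, had 0.27 and 0.43. The part of these cells in the receptor values was not tested. In bulk RNA, fewer cells of a type and less RNA per cell cannot be told apart.

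Across the 9 libraries, after the mean of each batch was subtracted from log2 CPM, Ccr2 and Cxcr6 varied almost in step (Pearson r = 0.96). Ccr8 went with Cx3cr1 (r = 0.82), and Cxcr4 ran against Ccr8 (r = -0.91) and Cx3cr1 (r = -0.71). These correlations are descriptions over 9 points that share their libraries. WT 4 was the highest batch 2 library for Ccr2, Cxcr6, Ccr4, Ccr6, Ccr8 and Cx3cr1 and the lowest for Cxcr4 and Ccr9. In batch 1, WT 1 was the highest for Ccr2, Cxcr6 and Ccr4, and WT 2 the lowest for Ccr2, Cxcr6, Ccr8 and Cx3cr1. For Ccr2 and Cxcr6 the highest and the lowest batch 1 library were thus both WT. Ccr2 in batch 2 deviated from its batch mean by 0.89 on the log2 scale in WT 4 and by -0.10 in WT 3.

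**Figure D4:**
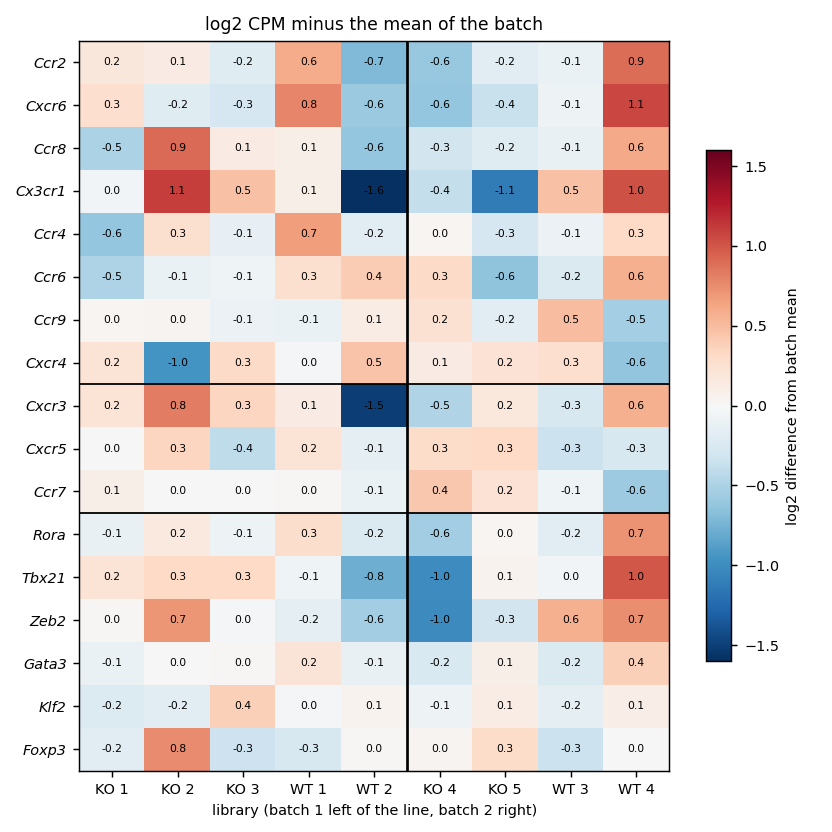
Deviation of log2 CPM from the batch mean in each library (colour and printed value) for the 8 receptors, 3 other receptors and 6 transcription factors, ERα KO left of WT within each batch. Ccr2 and Cxcr6 share their pattern of high (WT 1, WT 4) and low (WT 2, ERα KO 4) libraries, and Cxcr4 is lowest in ERα KO 2 and WT 4.

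Among 8203 genes with a mean of at least 10 CPM in both batches, the 3 most like Ccr2 in this measure were Eif4e3, a cap-binding translation factor (r = 0.98), Cd44, an adhesion receptor of activated and memory T cells (r = 0.98), and Ctsa, a lysosomal protease (r = 0.96). Cd44 had 193, 182 and 196 CPM in batch 1 ERα KO, against 218 and 128 CPM in WT, and 185 and 241 CPM in batch 2 ERα KO, against 231 and 407 CPM in WT. As for Ccr2, WT 1 and WT 4 were high and WT 2 was low. The genes most like Cxcr6 were Rnh1, a ribonuclease inhibitor (r = 0.97), Ccr2 (r = 0.96) and Eif4e3 (r = 0.96). Cxcr4 was most like Atp1b1, a sodium pump subunit (r = 0.94), Pan3 (r = 0.93) and Hspbap1 (r = 0.91). Ccr4 was most like Ciao2b (r = 0.97), Kars, the lysyl-tRNA synthetase (r = 0.92), and Carmil2 (r = 0.92). Ccr6 was most like Bbip1 (r = 0.91), Mxd4 (r = 0.89) and Zfat (r = 0.88). All of these were over 9 libraries.

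The other chemokine receptors of the table, 16 genes, gave 0 that passed over all genes in any comparison. Of the 15 tested over both batches, 8 were above 0 and 7 below, with a median of 0.10. Of the 15 tested in batch 1, 12 were above 0 and 3 below, with a median of 0.44, and of the 11 tested in batch 2, 4 were above 0 and 7 below, with a median of -0.51. Ccr7, the receptor of naive and central memory T cells for lymph node entry, had 247, 229 and 246 CPM in batch 1 ERα KO, against 229.98 and 215 CPM in WT. The groups overlapped there, and the log2 fold change was -0.04 ± 0.37. Its difference between batches was 0.57 ± 0.25 (adjusted p = 0.591). Batch 2 levels were 335 and 291 CPM in ERα KO, against 229.9 and 169 CPM in WT (0.65 ± 0.20, unadjusted p = 0.0193, adjusted p = 0.625). Cxcr5, the follicular homing receptor, had 53.6 and 54.5 CPM in batch 2 ERα KO, against 33.4 and 37.3 CPM in WT (0.62 ± 0.11, unadjusted p = 0.00200, adjusted p = 0.618). In batch 1 its groups overlapped (-0.14 ± 0.37). Cxcr3, a receptor of Th1 cells, had 0.77 ± 0.42 in batch 1 and -0.32 ± 0.35 in batch 2, and did not pass the test of the difference between batches (adjusted p = 0.618).

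The ligands were low in these T cell libraries. Of 12 genes, 6 averaged at least 1 CPM in either batch. Ccl25, the ligand of Ccr9, had 7.05, 6.08 and 11.0 CPM in batch 1 ERα KO, against 5.05 and 11.0 CPM in WT, and 5.20 and 5.84 CPM in batch 2 ERα KO, against 3.35 and 6.26 CPM in WT (0.08 ± 0.33 over both batches). Cxcl12, the ligand of Cxcr4, had 3.44 to 10.9 CPM in batch 1 ERα KO, against 2.83 and 9.34 CPM in WT, and 0 counts in every batch 2 library. Ccl22 and Ccl17, the ligands of Ccr4, had 1.61 to 4.34 and 0.266 to 2.56 CPM in batch 1 ERα KO, against 1.505 to 2.23 and 0.177 to 2.64 CPM in WT, and at most 0.222 CPM in batch 2. Cx3cl1 and Cxcl16, the ligands of Cx3cr1 and Cxcr6, had 1.38 to 7.30 and 0.532 to 1.78 CPM in batch 1 ERα KO, against 1.77 to 3.86 and 0.708 to 0.812 CPM in WT, and at most 0.229 CPM in batch 2. Leaving Ccl25 aside, 12 of the 25 batch 1 values of these ligands lay above the 95th percentile of the sensory receptor genes in the same library, all 5 of Cxcl12 among them. Of the 12 ligands, 4 were tested over both batches, 6 in batch 1, 3 in batch 2 and 4 for the difference between batches, the others being too low. None of those tested passed.

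Of the 37 genes of receptor signalling and its shutdown, all tested over both batches, 18 were above 0 and 19 below, with a median of -0.01, and 0 passed. Rgs1, which ends G protein signals of chemokine receptors, had 17.3, 28.7 and 8.88 CPM in batch 1 ERα KO, against 30.5 and 36.5 CPM in WT. Batch 2 Rgs1 levels were 15.6 and 13.5 CPM in ERα KO, against 27.7 and 17.5 CPM in WT. All ERα KO libraries were below all WT libraries of their own batch. That pattern was held by 5.19% of all genes tested in batch 1 and by 20.5% in batch 2. The share holding it in both batches was not counted. Over both batches the value of Rgs1 was -0.77 ± 0.29 (unadjusted p = 0.0224, adjusted p = 1.00), and -0.61 without ERα KO 3. In batch 1 it was -0.93 ± 0.40, or -0.57 without ERα KO 3. In batch 2 it was -0.64 ± 0.28, or -0.22 without WT 3 and -0.97 without WT 4. Rgs16, of the same family, had 0.69 ± 0.50 in batch 1 and -0.52 ± 0.29 in batch 2. Gnai2, the inhibitory G protein subunit, and Dock2 had -0.08 ± 0.11 and -0.15 ± 0.16 over both batches, each with an adjusted p of 1.00.

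Of 13 transcription factors tied to receptor-bearing T cell subsets, 3 were above 0 and 10 below over both batches, with a median of -0.11, and 0 passed. Zeb2, a factor of terminal effector T cells and of myeloid cells, had 29.4, 47.2 and 30.6 CPM in batch 1 ERα KO, against 25.6 and 19.7 CPM in WT. In batch 2 it had 7.59 and 12.5 CPM in ERα KO, against 22.3 and 26.2 CPM in WT. Its groups were separate in opposite directions in the 2 batches. ERα KO lay below WT in this way for 20.5% of all genes tested in batch 2, and the share above WT in batch 1 was not counted. The Zeb2 difference between batches was -1.89 ± 0.43 (unadjusted p = 0.00106, adjusted p = 0.451). Tbx21, the Th1 factor, had a difference between batches of -1.602 ± 0.55 (adjusted p = 0.554). Rora had -0.30 ± 0.21, Gata3 -0.12 ± 0.14, Foxp3 0.31 ± 0.21 and Klf2 0.03 ± 0.14 over both batches, each with an adjusted p of 1.00.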

How the data were processed

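RNA of 9 CD4+ T cell samples was sequenced as 100 bp single-end reads after library preparation with the Tecan Ovation kit, per the labels' protocols. The submitters' processing notes name Salmon 1.2.0, R 4.0.3 and GRCm39 without giving their roles. The deposited table holds estimated counts per gene, which the authors left unrounded (0 of 236181 nonzero values are whole). Here they were rounded. CPM was the rounded count over the library total. Differences were tested with edgeR 4.0.16 in R 4.3.3 (TMM scaling, robust quasi-likelihood fit, filterByExpr by genotype with a minimum count of 10 and total of 15), with Benjamini-Hochberg adjustment over all genes tested and a threshold of 0.05. The standard error is the fold change divided by the root of F. Alternatives were DESeq2 1.42.0, other scalings, no filter, no batch term, a replicate block, a shared spread and leaving out libraries. Scripts were tested on simulated data.

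The 8 receptors and all lists were chosen with earlier results of these data known. Named were the receptors, Esr1, fixed members of the lists, ligands with a mean of at least 1 CPM in either batch, and the 3 genes most alike each member with at least 10 CPM in both batches (log2 CPM with a prior count of 2), leaving out names that start with Gm and a digit or LOC, or end in Rik. Of these named genes, 2 are not reported here. Ddx3y, Xist, Csf1r, Gzma, Prf1 and Eomes were named after their values were seen. Promoter windows came from RefSeq (GRCm38.p6), exon lengths and shared 31-base stretches from GENCODE M21 (GRCm38). These differ from the build of the files, so no coordinate of one was used in the other. Identical or near-identical libraries were looked for: chi-square per degree of freedom between replicates was 4.27 to 141, so no 2 were merged.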

Additional observations from a re-analysis of the deposited data

Results flagged for a closer look

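In 86 groups of samples examined, 1 sample lay far from the others of its group 4 times. Each group held all ERα KO or all WT libraries, pooled over both batches. A rate of about 1 in 20 groups would give about 4.3. That rate assumes libraries of 1 kind, which the batches were not, so it cannot serve as the number due to chance here. Ccl17 had 2.56 CPM in ERα KO 3, against 0 to 0.459 CPM in the other ERα KO libraries, and 2.64 CPM in WT 2, against 0 to 0.177 CPM in the other WT libraries. The dendritic cell markers summed to 157 CPM in WT 1, against 84.9 to 88.2 CPM in the other WT libraries. Cd74 alone had 130 CPM in WT 1, and the ERα KO libraries had marker sums of 77.5 to 424 CPM. The erythroid markers summed to 1820.4 CPM in WT 3, against 4.67 to 96.9 CPM in the other WT libraries. No receptor of the group was among the 4.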

How the results depend on the processing

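Apart from the batch 2 fit without WT 3, no receptor passed the threshold under any alternative run. Genes passing moved as follows. Over both batches (1), DESeq2 gave 16, no batch term 0, no filter 2, and leaving out 1 library 0 (without WT 1) to 3 (without WT 4). In batch 1 (31), DESeq2's size factors gave 56, no filter 68, upper-quartile scaling 6, a spread shared over all groups 3, the replicate block 58, and leaving out 1 library 33 to 118 (without WT 2). In batch 1 the 31 split into 18 higher and 13 lower, and upper-quartile scaling gave 1 higher and 5 lower. Its median over all genes was 0.11, that of DESeq2's size factors -0.08 and that of TMM 0.04. In batch 2 (0), DESeq2 gave 329, no filter 34, and leaving out 1 library 0 to 879, with 0 to 3 receptors. For the difference between batches (1), DESeq2 gave 165, no filter 2, leaving out WT 3 and ERα KO 3 together 15, and leaving out 1 library 1 to 238 (without WT 4). The cause of these moves was not tested.

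Signs turned under these settings. Over both batches, upper-quartile scaling put Ccr8 at 0.015, Ccr9 at 0.0096 and Cxcr4 at 0.013, no batch term put Cx3cr1 at 0.55, and leaving out WT 3 and ERα KO 3 together, chosen after seeing the data, put Ccr9 at 0.24. Leaving out 1 library gave -0.37 to 0.25 for Ccr8, -0.19 to 0.14 for Ccr9, -0.87 to 0.34 for Cx3cr1 and -0.21 to 0.18 for Cxcr4. In batch 1 it gave -0.81 to 0.82 for Ccr2, -1.07 to 0.10 for Ccr4, -1.10 to 0.62 for Cxcr6, -0.14 to 0.99 for Ccr8, -0.16 to 0.017 for Ccr9 and -0.78 to 0.59 for Esr1. In batch 2 it gave -0.85 to 0.14 for Ccr6, -0.46 to 0.61 for Ccr9 and -0.082 to 0.82 for Cxcr4, and upper-quartile scaling put Ccr9 at 0.035. For the difference between batches it gave -0.41 to 0.81 for Ccr4, -0.32 to 0.69 for Ccr6, -0.45 to 0.66 for Ccr9 and -0.11 to 0.76 for Rgs1. There Ccr9 was 0.092 with no filter, 0.069 with upper-quartile scaling and 0.54 without WT 3 and ERα KO 3, and Ccr6 was -0.063 without that pair.

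The labels do not say whether same-numbered libraries belong together. Their deviations from the group means correlated at 0.36, -0.39, -0.09 and -0.06. These values cannot decide it. Each batch has 2 WT libraries, whose deviations mirror each other, and the libraries numbered 3 lie in different batches. With the replicate block, 1 gene passed over both batches, Ccr9 was 0.31 and Cx3cr1 0.22, and in batch 1 Ccr2 was 0.20 and Ccr9 0.040. Within batch 2 no fit paired by number was possible because the groups share fewer than 2 numbers there, which also affects the difference between batches. Batch 1 depth limits Ccr8, Ccr9 and Cx3cr1, which had 9 to 108 counts a library there.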

Other observations

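Of the 4 atypical chemokine receptors listed, Ackr3 and Ackr4 had counts in every batch 1 library and none in batch 2. Ackr2 had counts in every batch 1 library and, in batch 2, only in WT 3 (6 counts). Ackr1 ran the other way, with 4 counts in WT 1 alone in batch 1 and 7 to 281 counts in batch 2, highest in WT 3. Ackr4, which removes Ccr7 and Ccr9 ligands, had 2.93, 1.72 and 5.52 CPM in batch 1 ERα KO, against 0.620 and 1.42 CPM in WT. Ackr3, which removes Cxcl12, had 1.73, 1.26 and 4.14 CPM in batch 1 ERα KO, against 0.354 and 1.42 CPM in WT. In each of the 4 batch 2 libraries both had 0 counts, which allows up to 0.0430 to 0.0666 CPM. In batch 1, 0 of 5 Ackr3 values and 3 of 5 Ackr4 values lay above the 95th percentile of the sensory receptor genes in the same library, and ERα KO 3 was highest for both. Cxcr2, a neutrophil receptor, had 21.3, 14.6 and 7.89 CPM in batch 1 ERα KO, against 12.4 and 6.09 CPM in WT, and 0.302 and 0.696 CPM in batch 2 ERα KO, against 2.85 and 0.0666 CPM in WT. These 5 genes were picked with their values in view, and none passed a test.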
